A study of Mus musculus with 2 samples.

Results

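The 10 genes described here encode the NF-kB transcription factors and a set of their feedback genes: the 5 subunits Nfkb1, Nfkb2, Rel, Rela and Relb, the inhibitors Nfkbia and Nfkbie, the ubiquitin-editing enzyme gene Tnfaip3, the adaptor gene Traf1 and the ubiquitin ligase gene Birc3. They were taken by symbol from the 32285 genes of the count table, and each symbol had 1 entry. Their rows were picked by symbol alone, but the genes and the gates were chosen with earlier results of these data known. The mature and resting classes were set by measured UMIs. In splenic DC of both genotypes, 7 of the 10 genes were more than 2-fold higher in mature DC than in resting DC. Nfkb1 went the other way in cells without cDC1 genes, and Relb was lower in resting cDC2-like cells of H2-Aa cit/cit mice than of WT mice.

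Single-cell RNA was measured in 1 library per genotype. WT cells carried H2-Aa +/+, and H2-Aa cit/cit cells were homozygous for citation, an ENU-derived allele described as a putative null of the gene for the alpha chain of the MHC class II molecule I-A. Both libraries came from spleens of naive female mice aged 4 months, 3 mice pooled per genotype, and cells were not assigned to single mice in the files. Cells were enriched on CD11c and then sorted as live CD45.2+ CD11c+ cells. Since each genotype is 1 pool, no test between samples could be made. Every interval given covers counting error in UMIs (unique molecular identifiers, each standing for 1 captured RNA molecule) and nothing of the variation between mice.

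NF-kB factors are dimers of the 5 subunits. IkB proteins such as those of Nfkbia and Nfkbie hold the dimers in the cytoplasm until IKK kinases mark them for degradation, while in the alternative pathway the Nfkb2 precursor is processed and pairs with RelB. The dimers then switch on the genes for their own inhibitors and for several of their own subunits, which is why these genes are read as feedback genes. In DC the pathway follows Toll-like receptor and TNF-family receptor signals, and RelB is known for its part in DC development and maturation.

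All 10 genes lie on GRCm38, with gene models from GENCODE vM21, and all are protein-coding. Nfkb1 (chr3:135584655-135691547), Rel (chr11:23736847-23770970), Relb (chr7:19606217-19629438), Nfkbia (chr12:55489410-55492647), Tnfaip3 (chr10:19000910-19015657), Traf1 (chr2:34941750-34961772) and Birc3 (chr9:7848699-7873186) are on the minus strand. Nfkb2 (chr19:46304320-46312385), Rela (chr19:5637483-5648130) and Nfkbie (chr17:45555703-45563169) are on the plus strand. Nfkb1 overlaps Gm43430 on its own strand, so a few reads of Nfkb1 may be assigned with less certainty. Nfkb2 overlaps AC114539.1 and Psd on the other strand.

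The start-site windows of these genes were searched for the κB decamer, the DNA element that NF-kB dimers bind, on both strands in RefSeq sequence of GRCm38.p6 running from 250 bases before to 50 bases after each start site. Windows were at hand for 8 of the 10 genes, all but Nfkb1 and Relb. At least 1 match was found for 5 of the 8 (62.5%), namely Nfkb2, Rel, Nfkbia, Nfkbie and Tnfaip3, and none for Rela, Traf1 or Birc3, which says only that these letters are not in those windows. Among all 27025 genes with windows, 9.55% had a match, and of all 32851 windows 8.46% did. The stretches below, each of 30 bases on the gene's own strand, are shown because they hold the letters of the element these factors bind, near start sites of 5 of their own family and feedback genes. Capitals mark the match, with overlapping matches on both strands merged. The position after each name is where the first capital stands before the RefSeq start site. For Nfkb2, which had more than 1 window, only the match at 39 bases is shown. Its other matches began 236, 225 and 11 bases before a start site. Counted by window, 7 of the 11 windows of the 8 genes had a match.
Nfkb2, chr19:46304688-46304717, plus strand, 39 bases before: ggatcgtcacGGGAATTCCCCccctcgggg
Rel, chr11:23771042-23771071, minus strand, 92 bases before: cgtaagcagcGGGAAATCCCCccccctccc
Nfkbia, chr12:55492657-55492686, minus strand, 29 bases before: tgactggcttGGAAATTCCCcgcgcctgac
Nfkbie, chr17:45555584-45555613, plus strand, 106 bases before: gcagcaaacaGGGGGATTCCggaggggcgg
Tnfaip3, chr10:19015516-19015545, minus strand, 125 bases before: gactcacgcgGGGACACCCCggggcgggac
Tnfaip3, chr10:19015411-19015440, minus strand, 12 bases before: gtgactggaatttccatcGGAAATCCCCct
The Rel, Nfkbia and Nfkbie stretches lie upstream of the gene models given above. Those of Nfkb2 and Tnfaip3 lie inside them, close to the 5′ end. A match is a run of letters and not a measured binding site, and these libraries hold no binding data.

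The WT library held 7814 cells and 51020804 UMIs (median 5492 per cell), and there were 11525 cells with 72652201 UMIs (median 5633 per cell) from H2-Aa cit/cit mice. H2-Aa itself was at 5410 CPM (the UMIs of a gene scaled to the total of the cells summed) in WT cells and at 66.2 in H2-Aa cit/cit cells. The libraries shared 31 cell barcodes. The median share of ribosomal protein UMIs was 11.3% in WT cells and 16.5% in H2-Aa cit/cit cells. No caller for doublets was run.

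Classes were set by UMI sums of marker genes per cell. A cell was called mature DC when Ccr7, Fscn1, Socs2 and Cacnb3, genes of migratory DC, summed to at least 4 UMIs, intermediate at 2 or 3, and resting at 0 or 1. This gave 1743 mature and 3063 resting DC in WT, and 1110 mature and 6070 resting DC in H2-Aa cit/cit. The resting cells divided into 2532 WT and 5373 H2-Aa cit/cit cDC2-like cells and 531 and 697 cDC1-like cells. The mature cells divided into 1573 and 1086 without cDC1 genes and 170 and 24 with them. Cells with cDC1 genes had at least 3 UMIs in sum of Xcr1, Clec9a, Cadm1, Tlr3 and Itgae. Resting cDC2-like cells had fewer of these and at least 2 UMIs of the cDC2 genes Sirpa, Clec4a4, Cd209a, Itgam, Mgl2 and Esam. Sirpa and Xcr1 are thus gate genes, and their levels do not test the labels. In WT and H2-Aa cit/cit, resting cDC2-like cells had 482 and 383 CPM of Sirpa and 2.21 and 2.01 CPM of Xcr1. Resting cDC1-like cells had 325 and 359 CPM of Xcr1. Mature DC kept 84.0 and 116 CPM of Itgax, which encodes CD11c, and 577 and 469 CPM of Flt3. The gate called Ms4a1 and Ebf1 here also took Cd79a and 1 gene not reported here. Its cells had 273 and 337 CPM of Ms4a1, 83.8 and 85.0 of Ebf1, and 33.1 and 0 of Cd79a. They also had 483 and 340 CPM of Flt3, so they were not given a B cell name. The gate called Adgre4 also took Ace, Fabp4, Cd300e and Spn. Its cells had 643 and 520 CPM of Adgre4, 134 and 121 of Ace, and 165 and 34.7 of Fabp4. Cd300e was at 142 and 108 CPM and Spn at 123 and 86.1 CPM. These cells had 275 and 279 CPM of Flt3 as well, and neither group is named or used as a cell type here.

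The question of the main comparison was how these genes differ between mature and resting DC within 1 genotype. Of the 10 genes, 7 were more than 2-fold higher in mature DC in both libraries, and none was more than 2-fold lower. Among all 7247 genes at 20 CPM or more in either class of either library, 10.5% were higher and 11.6% lower by that rule. The median log2 ratio of the 10 genes was 1.32 in WT cells and 1.50 in H2-Aa cit/cit cells, beside -0.24 and -0.13 for all genes tested. All 10 genes passed the 20 CPM level. With cells thinned to 1500 UMIs and gated anew on the thinned counts, 6 genes passed, and Nfkb2 in WT was at 0.88. The share of all genes after thinning is not given here, so these 6 have no background. The ratios are shares of a class's UMIs, so they do not tell how the RNA of a whole cell changed.

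Among the subunits, Relb, the partner of the processed Nfkb2 product, differed most. It stood at 1751 CPM in mature and 399.7 CPM in resting WT DC, and at 1716 and 255 CPM in H2-Aa cit/cit. That is 4.38-fold and 6.73-fold, or 2.13 (95% interval 2.09 to 2.17) and 2.75 (2.71 to 2.79) on the log2 scale. The mature levels of the libraries were close, and the resting level was the lower one in H2-Aa cit/cit. Rel, which encodes c-Rel, was at 1174 CPM against 482 CPM in WT and at 1067 against 374 CPM in H2-Aa cit/cit (log2 ratios 1.28 and 1.51). Nfkb2 stood at 135 against 54.9 CPM and at 125 against 50.8 CPM, with log2 ratios of 1.30 in both.

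Rela, the subunit of the classical dimer, was at 64.0 against 35.0 CPM in WT and at 53.4 against 35.7 CPM in H2-Aa cit/cit. Its log2 ratios of 0.87 (0.72 to 1.01) and 0.58 (0.41 to 0.75) did not reach 2-fold. Nfkb1 was the 1 gene of the 10 that was lower in mature DC, at 386 against 649 CPM in WT and at 420 against 579 CPM in H2-Aa cit/cit, which are log2 ratios of -0.75 (-0.80 to -0.70) and -0.46 (-0.52 to -0.41). So the partner genes of the classical dimer, Nfkb1 and Rela, lay on opposite sides of 0 in both libraries.

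Of the feedback genes, Tnfaip3 and Traf1 had the highest ratios. Tnfaip3 restrains signalling upstream of IKK. It was at 210 against 39.9 CPM in WT and at 147 against 33.9 CPM in H2-Aa cit/cit (log2 ratios 2.40 and 2.12). Traf1, an adaptor of TNF-family receptors, was at 1122 against 222 CPM and at 1079 against 160 CPM (2.34 and 2.75). Birc3, a ligase that acts in TNF receptor signalling and in the turnover of the NIK kinase, was at 1056 against 402 CPM and at 908 against 311 CPM (1.39 and 1.55).

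The IkB genes differed from each other in size of change. Nfkbia was at 738 against 291 CPM in WT and at 704 against 252 CPM in H2-Aa cit/cit (log2 ratios 1.34 and 1.48). Nfkbie was at 102 against 63.1 CPM and at 102 against 63.5 CPM (0.69 and 0.68), below 2-fold in both libraries. Ranked from the highest mean log2 ratio of both libraries among 7247 genes, Traf1 was at place 273, Relb at 295 and Tnfaip3 at 326. Birc3, Nfkbia, Rel and Nfkb2 were at places 598 to 691, Rela at 1140, Nfkbie at 1188 and Nfkb1 at 5138.

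Markers of some other cells were higher in mature DC as well. The 6 macrophage genes summed to 114 CPM in mature and 26.9 CPM in resting DC of WT, and to 75.9 and 30.8 CPM in H2-Aa cit/cit. By side, they were at 99.5 against 22.6 and 61.9 against 17.7 CPM without cDC1 genes, and at 178 against 39.8 and 351 against 77.8 CPM with them. In mature DC with cDC1 genes of H2-Aa cit/cit, C1qa and C1qc were at 0. The B cell genes Cd79a, Ms4a1 and Ebf1 summed to 26.8 against 14.5 CPM and to 19.9 against 6.69 CPM. The neutrophil genes were lower in mature DC of WT (2.67 against 138 CPM) and higher in those of H2-Aa cit/cit (50.4 against 20.7 CPM). The part of these markers in the ratios of the 10 genes was not tested.

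**Figure D1:**
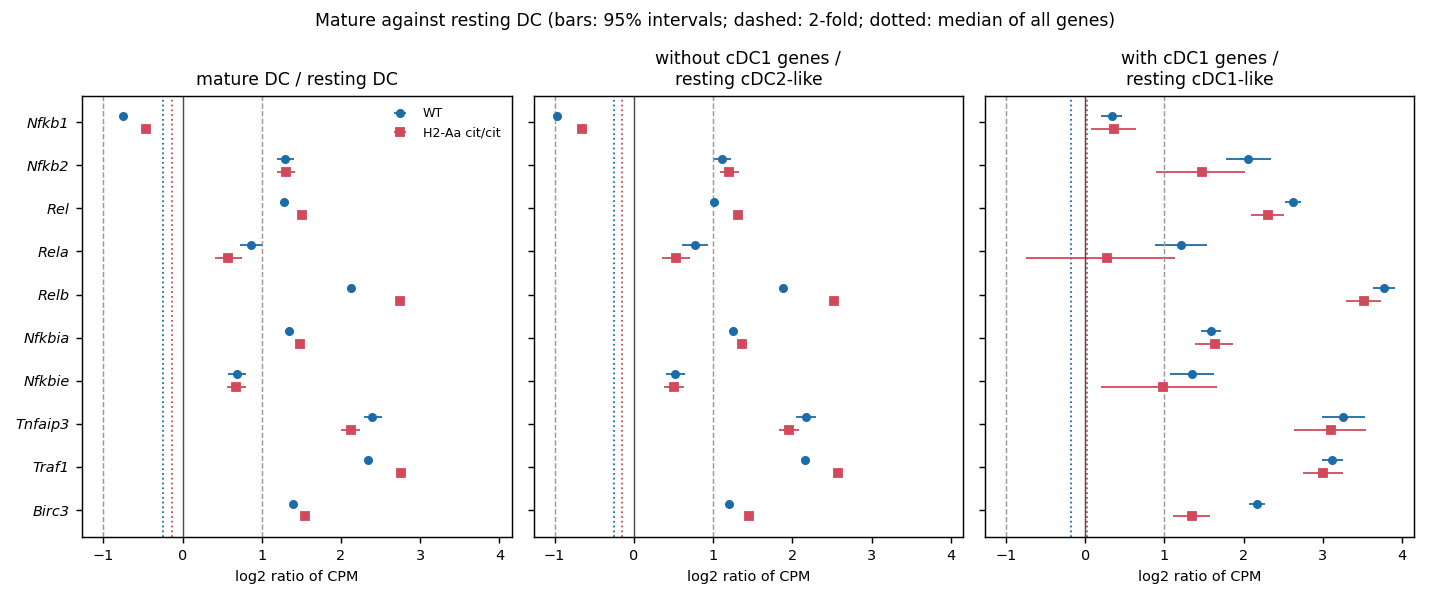
Log2 ratio of CPM in mature against resting DC for each of the 10 genes, for all DC and for cells without and with cDC1 genes, with WT and H2-Aa cit/cit as separate points and bars as 95% counting intervals. Nfkb1 lies below 0 in all DC and in cells without cDC1 genes (-0.97 and -0.65) and above 0 in cells with cDC1 genes (0.33 and 0.36).

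Taken apart by cDC1 genes, the same comparison gave 7 genes past 2-fold on each side, and they were Nfkb2, Rel, Relb, Nfkbia, Tnfaip3, Traf1 and Birc3 both times. On the cDC2 side, mature DC without cDC1 genes against resting cDC2-like cells, 10.3% of 7216 genes were higher and 11.8% lower by the rule. Mature cells of this side were not required to have cDC2 genes, and had 189 and 230 CPM of Sirpa. The cDC1 gate counts raw UMIs, and mature cells with cDC1 genes were deeper (medians 13164 and 12932 UMIs, beside 6371 and 5134). Shallower mature cells of cDC1 origin may thus lie on the cDC2 side, which was not tested. On the cDC1 side, mature DC with cDC1 genes against resting cDC1-like cells, 10.7% of 7203 genes were higher and 5.11% lower. None of the 10 genes was more than 2-fold lower on either side. The median log2 ratio of the 10 genes was 1.16 in WT cells and 1.34 in H2-Aa cit/cit cells on the cDC2 side (all genes -0.25 and -0.15), and 2.11 and 1.56 on the cDC1 side (all genes -0.19 and 0.02). On the cDC2 side Rel in WT lay just past the limit, at 2.02-fold, and it was short of it with values averaged over cells (log2 ratio 0.92) and with intermediate cells counted as resting (0.99). With each cell thinned to 1500 UMIs and gated anew, 4 genes were past 2-fold there (Relb, Nfkbia, Tnfaip3 and Traf1). Those 4 were also past it among cells with a ribosomal share under 8%, where Nfkb1 was more than 2-fold lower (log2 ratios -1.20 and -1.10). For neither setting is the share of all genes given here, so these counts have no background.

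Resting cDC1-like cells had low levels of most of these genes. Relb was at 96.2 CPM in resting cDC1-like cells and 1311 CPM in mature DC with cDC1 genes in WT, and at 66.4 and 759 CPM in H2-Aa cit/cit, 13.6-fold and 11.4-fold. On the cDC2 side Relb was at 502 and 1848 CPM in WT and at 307 and 1765 CPM in H2-Aa cit/cit, 3.68-fold and 5.74-fold. Relb was several times lower in resting cDC1-like than in resting cDC2-like cells, while its mature levels lay nearer to each other in WT. Traf1 was at 107 and 928 CPM on the cDC1 side in WT and at 66.7 and 536 CPM in H2-Aa cit/cit (log2 ratios 3.12 and 3.01). Tnfaip3 was at 26.9 and 257 CPM and at 20.5 and 175 CPM (3.26 and 3.10). With 24 cells, the mature class with cDC1 genes of H2-Aa cit/cit rests on few UMIs, 11 for Rela and 18 for Nfkbie.

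Nfkb1 differed in direction between the sides. It was at 782 CPM in resting cDC2-like cells and 399.7 CPM in mature DC without cDC1 genes in WT, and at 668 and 424 CPM in H2-Aa cit/cit, log2 ratios of -0.97 (-1.02 to -0.92) and -0.65 (-0.71 to -0.60). On the cDC1 side it was at 258 and 326 CPM in WT and at 260 and 335 CPM in H2-Aa cit/cit, log2 ratios of 0.33 (0.21 to 0.46) and 0.36 (0.07 to 0.65). The resting classes were thus far apart in Nfkb1, and the mature classes were closer to each other.

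**Figure D2:**
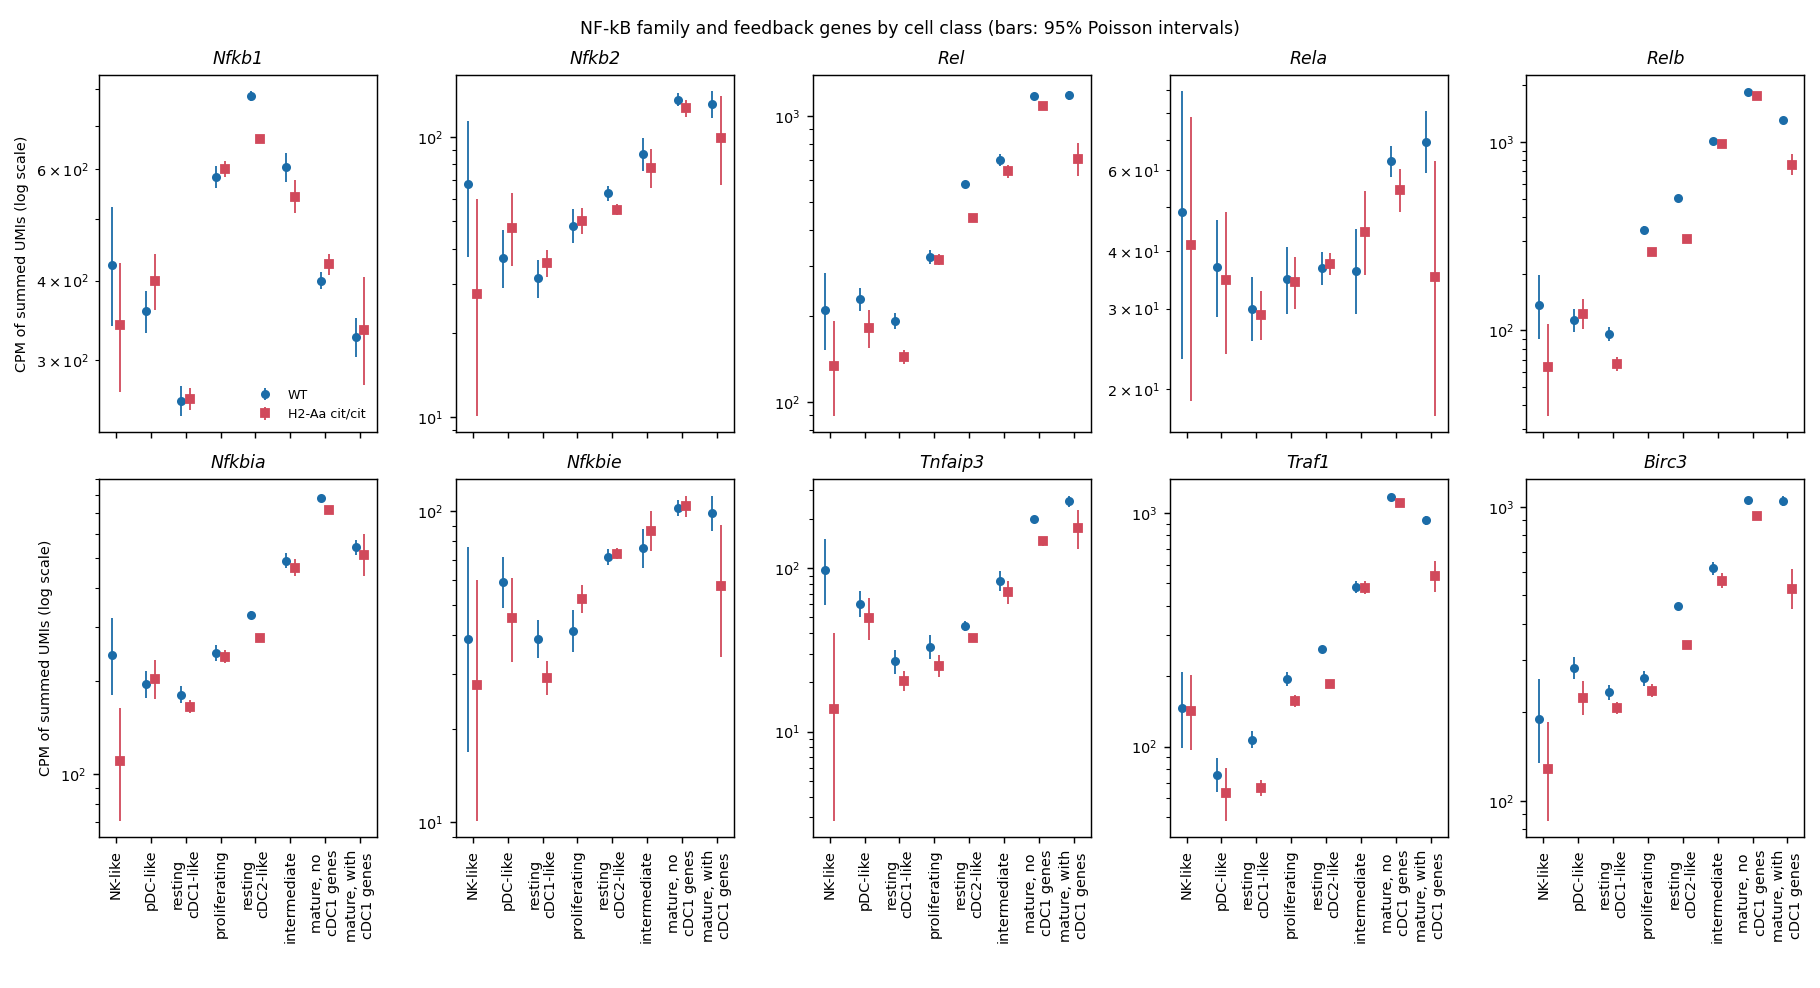
CPM of each gene in summed UMIs (log scale) by cell class, WT and H2-Aa cit/cit side by side, with 95% Poisson intervals of the counts. Relb climbs from 96.2 CPM in resting cDC1-like to 1848 CPM in mature WT DC without cDC1 genes, while Nfkb1 is highest in resting cDC2-like cells (782 and 668 CPM) among the classes plotted.

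Over the classes with at least 30 cells in both libraries, mature DC without cDC1 genes had the highest level of 9 of the 10 genes in both libraries. This leaves out mature DC with cDC1 genes, with 24 H2-Aa cit/cit cells. In that class Tnfaip3 was higher in both libraries (257 against 199.8 and 175 against 146 CPM). Rel (1182 CPM) and Rela (69.3 CPM) were higher there in WT only, and the other genes were lower in both libraries. These are orders of point values. In WT, Rel, Nfkb2, Nfkbie and Birc3 lay inside the counting intervals of mature DC without cDC1 genes. Tnfaip3 of that class rests on 55 UMIs in H2-Aa cit/cit. For Relb the next named DC class was the intermediate one (1011 and 975 CPM), then resting cDC2-like (502 and 307). Proliferating (342 and 261), pDC-like (113 and 123) and resting cDC1-like cells (96.2 and 66.4) followed. Cells that passed no gate lay above resting cDC2-like cells in Relb (595 and 393 CPM). So did cells of the Ms4a1 and Ebf1 gate (1057 and 945) and of the Adgre4 gate (647 and 445). The intervals of pDC-like and resting cDC1-like cells overlapped in WT. Traf1 had the same order of DC classes down to proliferating cells (195 and 157 CPM), and its lowest DC level was in pDC-like cells (75.6 and 63.1 CPM), with an interval that overlapped that of resting cDC1-like cells in H2-Aa cit/cit. Nfkb1 was the exception, with its highest level in cells that passed no gate (806 and 749 CPM), then in resting cDC2-like cells, and its lowest in resting cDC1-like cells (258 and 260 CPM). Cells that passed no gate were shallow, at a median of 2041 and 2208 UMIs. For Rela, the intervals of all neighbouring classes overlapped in both libraries.

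The change along the mature gate was followed on the cDC2 side by the number of gate UMIs in a cell. Cells with 0 or 1 gate UMIs also had to have at least 2 UMIs of cDC2 genes, and cells with more gate UMIs did not. Relb in WT was at 467 CPM in cells with 0 gate UMIs, 618 with 1, 1033 with 2, 1169 with 3, 1819 with 4, 1726 with 5 to 7, 2110 with 8 to 15 and 1782 with 16 and more. In H2-Aa cit/cit the levels were 282, 507, 922, 1218, 1439, 1752, 1910 and 1727 CPM. Most of the difference in Relb thus lay between 0 and 4 gate UMIs. Above that, WT cells showed no steady climb. In H2-Aa cit/cit Relb went on rising up to 8 to 15 gate UMIs, with intervals that did not overlap, and was lower at 16 and more. The selection of cells changed between 1 and 2 gate UMIs, and its part in the Relb difference was not tested. Traf1 went on climbing, from 249.8 CPM at 0 through 602 at 3 and 999 at 5 to 7 to 1237 CPM at 16 and more in WT, and from 175 through 615 and 949 to 1227 CPM in H2-Aa cit/cit. Tnfaip3 went from 44.7 to 222 CPM in WT and from 36.5 to 161 CPM in H2-Aa cit/cit between the end groups. Nfkb1 went down from 799 to 379.9 CPM in WT and from 669 to 416 CPM in H2-Aa cit/cit. Depth and ribosomal share moved along this axis as well: WT cells with 0 gate UMIs had a median of 5295 UMIs and a 10.7% ribosomal share, those with 4 had 3228 UMIs and 4.64%, and their part in these levels was not tested.

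**Figure D3:**
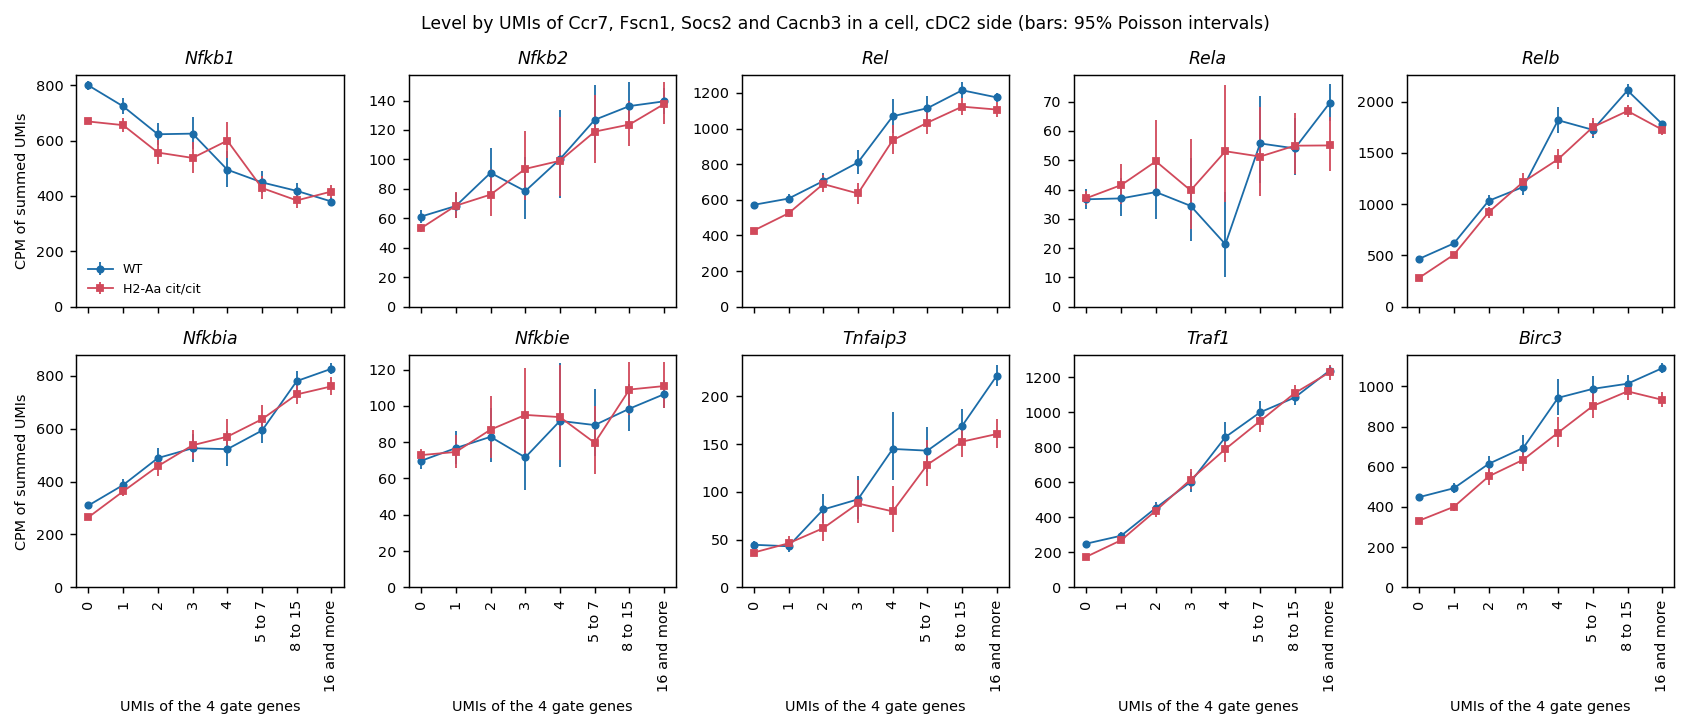
CPM of each gene (linear axis from 0) in cells grouped by their UMIs of Ccr7, Fscn1, Socs2 and Cacnb3, for cells without cDC1 genes in WT and H2-Aa cit/cit, with 95% Poisson intervals. Relb goes from 467 and 282 CPM at 0 gate UMIs to 1819 and 1439 CPM at 4, and Nfkb1 goes from 799 and 669 CPM down to 379.9 and 416 CPM at 16 and more.

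The genotypes were compared inside each class. In resting cDC2-like cells, 1 of the 10 genes, Relb, was more than 1.5-fold lower in H2-Aa cit/cit cells, and none was more than 1.5-fold higher. Of 6656 genes, 2.9% were lower and 2.3% higher by that rule. Relb was at 502 CPM in WT (7723 UMIs) and at 307 CPM in H2-Aa cit/cit (10075 UMIs), a log2 ratio of -0.71 (-0.75 to -0.67), which was place 119 from the lowest among the 6656. Traf1 (260 and 186 CPM, -0.49), Birc3 (459 and 340 CPM, -0.43) and Rel (580 and 438 CPM, -0.40) were lower by less than 1.5-fold. Nfkbia, Tnfaip3, Nfkb1 and Nfkb2 had ratios from -0.25 to -0.19, while Rela and Nfkbie were at 0.03 each, with intervals that included 0. The median of the 10 genes was -0.24, beside -0.07 for all genes.

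In resting cDC1-like cells, Traf1 was the 1 gene of the 10 past 1.5-fold, at 107 CPM in WT cells and 66.7 in H2-Aa cit/cit cells (-0.68, -0.85 to -0.51), and none was higher by that rule. Of 6355 genes, 6.34% were lower and 8.39% higher, so at full depth 1 of 10 is near the share of all genes. Relb was at 96.2 and 66.4 CPM (-0.53), Rel at 192 and 144 CPM (-0.42), and Nfkb1 at 258 and 260 CPM (0.01, -0.09 to 0.11). The Relb and Traf1 levels of this class were near or below those of NK-like cells (Relb 136 and 64.3 CPM, Traf1 146 and 142 CPM). Without cells of a ribosomal share under 8%, Traf1 was at -0.54, short of 1.5-fold. With cells thinned to 1500 UMIs and gated anew, 5 of the 10 genes were past it. Traf1 (-1.27), Nfkbie (-1.19), Relb (-1.16) and Rel (-0.77) were lower and Rela (0.66) was higher. So the count in this class depended on thinning, which also changed the cells of the class. The share of all genes past 1.5-fold after thinning is not given here, so the 5 genes have no background to be set against.

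In mature DC without cDC1 genes, 0 of the 10 genes were past 1.5-fold in either direction, where 3.84% of 6274 genes were lower and 5.16% higher. Relb was at 1848 CPM in WT cells and 1765 in H2-Aa cit/cit cells (-0.07, -0.10 to -0.03), and Traf1 at 1165 and 1106 CPM (-0.07, -0.12 to -0.03). Tnfaip3 differed most, at 199.8 CPM in WT cells against 146 in H2-Aa cit/cit cells (-0.45, -0.57 to -0.34). The cells of this class were not alike in WT and H2-Aa cit/cit, with medians of 16 and 12 gate UMIs. Their median ribosomal shares were 8.16% and 10.6%, and the part of these differences in the ratios was not tested. Nfkb1 was slightly higher in H2-Aa cit/cit, at 424 against 399.7 CPM (0.09, 0.01 to 0.16), but not in the group lowest in immediate-early share (-0.08, -0.21 to 0.05). In intermediate cells Relb was at 1011 and 975 CPM (-0.05, -0.14 to 0.03). In mature DC with cDC1 genes, 170 WT and 24 H2-Aa cit/cit cells, Relb was at 1311 and 759 CPM (-0.79) and Birc3 at 1049.8 and 526 CPM. The cells of that class were not alike in the libraries, with medians of 43 and 12.5 gate UMIs and ribosomal shares of 8.01% and 16.7%. The part of this in the ratios was not tested.

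On the cDC2 side, Relb was lower in resting but hardly in mature H2-Aa cit/cit cells, and its mature-to-resting ratio was larger there by 0.64 log2 units (0.59 to 0.70). On the cDC1 side it was lower in both classes (-0.53 in resting and -0.79 in mature cells), and the difference of its ratios was -0.25, with an interval from -0.51 to 0.0019 that includes 0. The mature cells of both sides had fewer gate UMIs in H2-Aa cit/cit, as given above. The same difference was 0.41 (0.34 to 0.48) for Traf1, 0.31 (0.24 to 0.39) for Nfkb1 and 0.29 (0.23 to 0.35) for Rel on the cDC2 side. It was -0.22 (-0.39 to -0.04) for Tnfaip3. These intervals again count UMIs only, in 1 library per genotype.

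**Figure D4:**
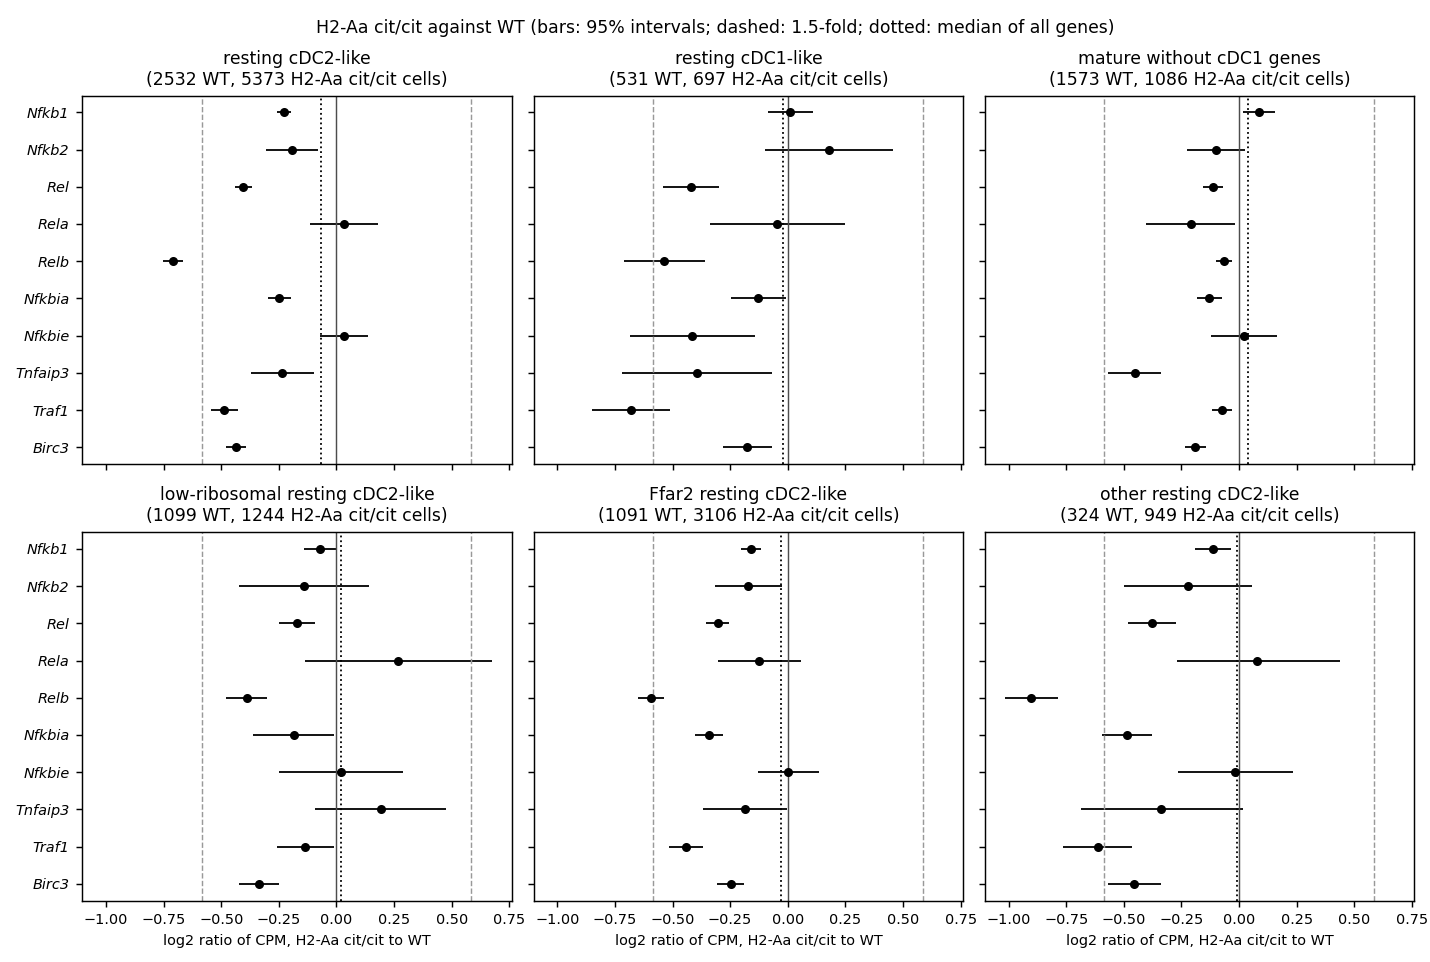
Log2 ratio of CPM in H2-Aa cit/cit against WT cells for each of the 10 genes, 1 panel per class, with 95% counting intervals. In resting cDC2-like cells Relb is the lowest point (-0.71), and in mature DC without cDC1 genes Tnfaip3 is (-0.45) while Relb is at -0.07.

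The lower Relb of resting H2-Aa cit/cit cDC2-like cells was looked for in parts of that class. It was at 442 and 236 CPM (-0.90) in cells with neither Ffar2 nor Ccr2 and Mgl2, at 458 and 303 CPM (-0.59) in cells with Ffar2 UMIs, and at 672 and 513 CPM (-0.39) in cells with a ribosomal share under 8%. The first groups hold only cells at 8% or more, and in the last group the difference stayed below 1.5-fold. Those low-ribosomal cells made up 43.4% of the class in WT, beside 23.2% in H2-Aa cit/cit, and they had higher levels of Relb and Nfkb1 (1031 and 981 CPM) than the cells with Ffar2 (690 and 618 CPM of Nfkb1) but lower levels of Nfkbia (163 and 143 against 362 and 285 CPM). In cells with Ccr2 and Mgl2 (18 from the WT library and 74 from the other) Relb was at 111 and 69.8 CPM (-0.67), with an interval from -1.45 to 0.15 that includes 0. In cells with 0 mature gate UMIs, Relb was at 467 and 282 CPM. The ratio was thus below 0 in each of these groups, by differing amounts.

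Other measures differed between the libraries in the same class. The 16 immediate-early genes, which respond within minutes to stimulation and to tissue handling, summed in resting cDC2-like cells to 2340 CPM for WT and to 1818 CPM for H2-Aa cit/cit, with UMIs for all 16 in both. When these cells were divided into 3 equal groups by their share of immediate-early UMIs, the Relb ratio was -0.78, -0.77 and -0.69 from the lowest to the highest group. The 4 mature gate genes summed to 35.1 and 17.1 CPM. Markers of other cells summed to 5.85 and 5.52 CPM for NK cells (5 genes), 0.781 and 0.793 for T cells (4), 14.5 and 7.01 for the B cell genes Cd79a, Ms4a1 and Ebf1, 46.4 and 73.0 for plasma cells (6), 22.6 and 17.7 for macrophages (6), 46.8 and 61.5 for monocytes (5), 184 and 21.2 for neutrophils (9) and 17.8 and 6.28 for erythroid cells (4). Trbc1 and the neutrophil genes Elane, Prtn3 and Ctsg were at 0 in WT, and Cd3g and Sdc1 were at 0 in H2-Aa cit/cit. In mature DC without cDC1 genes these lists ran from 1.12 to 99.5 CPM in WT and from 2.11 to 61.9 CPM in H2-Aa cit/cit, with Ncr1, Trbc1 and Sdc1 at 0 in both. The part of these markers in the Relb difference was not tested.

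At a fixed depth of 1500 UMIs per cell, a Relb UMI was found in 46.9% of 2461 WT resting cDC2-like cells and in 33.1% of the 5196 from H2-Aa cit/cit mice (78.2% and 64.9% before thinning, with 71 and 177 shallower cells left out). In mature DC without cDC1 genes the shares were 89.6% and 89.2%. In NK-like cells, which served as background (median depth 4575 and 4726 UMIs, beside 5530 and 6127 in resting cDC2-like cells), they were 8.57% of 35 and 10.7% of 28 cells. For Traf1 the thinned shares were 34.2% and 24.7% in resting cDC2-like cells and 77.4% and 78.2% in mature DC without cDC1 genes. In NK-like cells they were 11.4% of 35 and 28.6% of 28 cells, with an interval of 13.2% to 48.7% in H2-Aa cit/cit. That interval holds the 24.7% of resting cDC2-like cells, so the thinned Traf1 share does not set these classes apart in H2-Aa cit/cit. In CPM, Traf1 of H2-Aa cit/cit was at 186 (6091 UMIs) in resting cDC2-like and 142 in NK-like cells, with overlapping intervals. NK-like cells were not shown to lack Traf1. The Relb shares followed the CPM, with resting cells lower in H2-Aa cit/cit and mature cells close together.

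Over all cells of a library, without regard to class, Relb was at 804 CPM in WT cells and 436 in H2-Aa cit/cit cells, and Tnfaip3 at 89.8 and 46.8 CPM. Mature DC made up 22.3% of WT cells and 9.63% of those from H2-Aa cit/cit mice, and the part of class shares in these whole-library levels was not separated.

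Other genes of the pathway were read from lists chosen for their role, with earlier results of these data known. Their counts are thus a description and not independent support. Of 32 genes for IKK subunits, adaptors and receptors, 27 reached 20 CPM, and 10 were more than 2-fold higher and 2 lower in mature than in resting DC in both libraries (medians 0.41 and 0.33). Among all 7247 genes, 10.5% were higher and 11.6% lower by that rule. By the naming rule, the highest were the TNF-family receptor genes Tnfrsf4, at 154 against 3.06 CPM in WT and 74.8 against 1.22 CPM in H2-Aa cit/cit, and Tnfrsf9, at 53.6 against 2.24 and 45.7 against 1.22 CPM. The lowest were Myd88, the adaptor of most Toll-like receptors, at 9.30 against 29.9 and 14.8 against 39.2 CPM, and the TNF receptor gene Tnfrsf1a, at 8.85 against 33.3 and 13.1 against 43.3 CPM.

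Of 19 other IkB and inhibitor genes, 16 reached 20 CPM, 4 were higher and 1 was lower (medians 0.79 and 0.49), beside 10.5% and 11.6% of all genes. Tnip3, which encodes a binding partner of the Tnfaip3 product, was at 15.3 against 4.76 CPM in WT and 22.7 against 7.52 CPM in H2-Aa cit/cit. Nfkbiz, a nuclear IkB gene, was at 297 against 140.03 CPM and 403 against 114 CPM. Pdlim2 was lower, at 6.18 against 29.5 and 11.1 against 27.7 CPM, and the ligase gene Itch was at 197 against 441 and 198 against 345 CPM, not past 2-fold in H2-Aa cit/cit.

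Of 30 other genes known as NF-kB targets, 25 reached 20 CPM, 15 were higher and 1 was lower (medians 1.87 and 1.47), beside 10.5% and 11.6% of all genes. Il12b, a cytokine subunit gene, was at 179.99 against 4.28 CPM in WT and at 113 against 0.167 CPM, or 7 UMIs, in H2-Aa cit/cit. The chemokine gene Ccl22 was at 68.8 against 1.36 and 22.98 against 0.334 CPM. The survival gene Bcl2 was lower, at 5.87 against 34.4 and 8.33 against 44.7 CPM, and Sod2 was at 28.4 against 44.5 and 28.1 against 50.6 CPM, short of 2-fold.

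Between genotypes, none of 25 kinase, adaptor and receptor genes and none of 15 inhibitor genes passed 1.5-fold in resting cDC2-like cells, and 1 of 19 targets did, Ebi3, which was higher in H2-Aa cit/cit (26.0 and 39.2 CPM), beside 2.3% of all genes. In mature DC without cDC1 genes, Tnfrsf4 was lower (147 and 75.7 CPM), as were the targets Ccl22 (51.3 and 21.1 CPM), Bcl2l1 (81.2 and 47.7 CPM), Cd80 (135 and 89.6 CPM) and Pim1 (395 and 245 CPM), of 23 targets at that level. Tnip3 was higher there, at 10.6 and 23.7 CPM. In resting cDC1-like cells, 2 of 22 kinase, adaptor and receptor genes and 1 of 13 inhibitor genes were lower, and of 19 targets 5 were higher and 4 lower, beside 6.34% lower and 8.39% higher among all genes of that class. In mature DC without cDC1 genes, 4 of 23 target genes and 1 of 25 kinase, adaptor and receptor genes were lower in H2-Aa cit/cit. Of 15 inhibitor genes, 1 was higher and none lower. Of all genes, 3.84% were lower and 5.16% higher, so 1 of 25 is near the share of all genes. The cells of this class differed between the libraries in gate UMIs and ribosomal share, as given above. The part of this in these differences was not tested.

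The genes were also compared with each other over 23 points, each 1 class in 1 library with at least 30 cells, as Pearson's r of log2(CPM + 5). The points share libraries, and classes differ in depth and size, so r is a description of these points. Among the 7 genes past 2-fold, r ran from 0.750 (Tnfaip3 and Traf1) to 0.969 (Rel and Relb), with a median of 0.893 over 21 pairs. These 7 were picked by their mature-to-resting ratios, and the points include the same mature and resting classes. High r among them, and lower r with the genes left out, thus follows in part from that choice. Nfkb1 stood apart, with r from -0.088 with Tnfaip3 to 0.388 with Relb. Rela was between, from 0.075 with Nfkb1 to 0.744 with Nfkb2.

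**Figure D5:**
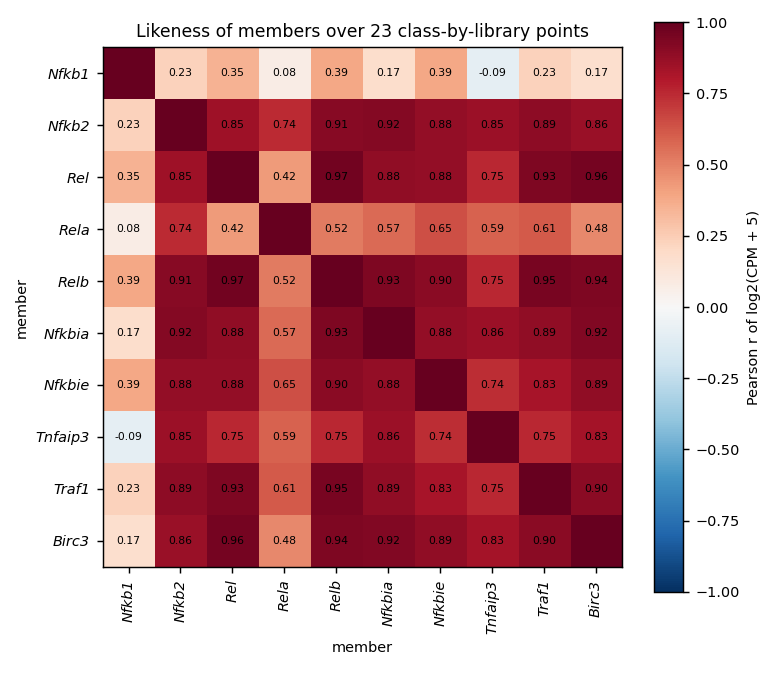
Pearson's r of log2(CPM + 5) for each pair of the 10 genes over 23 class-by-library points, on a scale from -1 to 1. The column of Nfkb1 is pale, with no r above 0.39, while pairs among the 7 genes past 2-fold lie between 0.75 and 0.97. The 7 were picked on mature and resting classes that are among the points.

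Among 6443 other genes at 50 CPM or more in at least 1 point, those most like the mean of the 10 genes were Lrrk1 (r = 0.967), Slco5a1 (0.962), Rasal2 (0.957), Mreg (0.956) and Castor2 (0.955). Taken 1 gene at a time, Tank was most like both Rel (0.975) and Relb (0.976), and Stard7 was most like Traf1 (0.980). Kcnk6 was most like Birc3 (0.965), Il4i1 like Nfkbia (0.960), Nup98 like Nfkb2 (0.959), Ptger4 like Tnfaip3 (0.954), Ptbp3 like Nfkb1 (0.919), Tmem168 like Nfkbie (0.916) and Traf5 like Rela (0.907).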

How the data were processed

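The authors deposited raw UMI counts, without normalization, from Cell Ranger 5.0.1 on GRCm38 (mm10). All deposited cells were kept, a few more per library than the study analysed. Libraries were grouped by their genotype label. The 10 genes, the pathway lists and the gates were chosen with earlier results of these data known. Cells took the first gate passed in the order NK, T, B, monocyte, macrophage, neutrophil, pDC, proliferating, mature, resting. UMIs were summed per class and library and scaled to CPM, with exact Poisson 95% intervals, and ratios had exact conditional binomial 95% intervals, a calculation tested on simulated data. No p was computed. 1 gene of the B cell list is not reported here. Genes from 20 CPM counted past 2-fold in both libraries, or past 1.5-fold between genotypes. Named genes are the 10, the 2 highest and 2 lowest per pathway list, and the most similar genes. Genes named between genotypes are those past 1.5-fold, chosen after their values were seen. For shares, cells were thinned to 1500 UMIs and kept their class. In the thinned alternative the gates were applied again to the thinned counts, so the cells of each class changed. Alternatives were other scaling, summing, cell filters, gates and thinning, and those within subclasses or low-ribosomal cells alone were added after seeing the data. Python 3.11.15, numpy 2.4.6, scipy 1.17.1, pandas 2.3.3 and matplotlib 3.10.9 were used.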

Additional observations from a re-analysis of the deposited data

Results flagged for a closer look

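Nfkb1 is listed here because its effect had opposite signs in 2 groups under the same contrast. Mature cells of the cDC2 side were not gated on cDC2 genes and may include cells of cDC1 origin. On the cDC2 side its log2 ratio of mature against resting cells was -0.97 in WT cells and -0.65 in H2-Aa cit/cit, and on the cDC1 side it was 0.33 in WT cells and 0.36 in H2-Aa cit/cit. The signs held under every alternative that gave a value, from -1.20 to -0.71 in WT and from -1.10 to -0.50 in H2-Aa cit/cit on the cDC2 side, and from 0.29 to 0.52 and from 0.22 to 0.51 on the cDC1 side.

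Between genotypes, Nfkb1 had a log2 ratio of -0.23 in resting cDC2-like cells and of 0.086 in mature DC without cDC1 genes. Under the alternatives listed for each class the first ran from -0.44 to -0.07 and the other from 0.0084 to 0.18. The sign in mature cells was not kept in every group by immediate-early share: from the lowest to the highest group the ratio was -0.08, 0.17 and 0.16. Neither difference between groups was tested, since each genotype has 1 library.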

How the results depend on the processing

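No paired analysis was possible because each genotype has 1 library. Of 840 values of single genes under the alternatives, 571 stayed within their counting interval and 269 moved outside it. Thinned to 1500 UMIs and gated anew, 4 genes (Relb, Nfkbia, Tnfaip3 and Traf1) passed 2-fold on the cDC2 side in place of 7, and the cDC1 side gave no value. In all DC, 6 passed after thinning, without Nfkb2. Of the genes on the cDC2 side, 6 passed with values averaged over cells and with intermediate cells counted as resting, without Rel both times. In resting cDC2-like cells, the genes past 1.5-fold between genotypes numbered 2 after thinning, 2 in the group lowest in immediate-early share, 2 in cells with neither Ffar2 nor Ccr2 and Mgl2, 0 in low-ribosomal cells and 7 in cells with Ccr2 and Mgl2 (18 WT cells). In resting cDC1-like cells they numbered 0 without cells of a ribosomal share under 8%, 5 after thinning and 2 with intermediate cells included. The share of all genes is not given here for any of these settings, so the counts have no background. No called ratio changed sign. The cause was not tested. Counts of UMIs limit the mature cDC1 class of 24 cells most.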
